A study of Mus musculus with 9 samples.

Results

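Cholesterol synthesis and its control by SREBP2 were followed through 7 of the 22036 genes in the deposited table in mouse microglia across age. They were picked by symbol and all 7 were found: Srebf2 and Insig1, which control the pathway, and the enzymes Hmgcs1, Idi1, Fdps, Sqle and Cyp51. Microglia, the resident macrophages of the brain, had been sorted by flow cytometry from brains of wild-type female C57BL/6 mice, with no other allele or treatment named in the labels. The ages were 6 months (young), 15 months (middle-aged) and 23 months (old), with 3 libraries at each. A library held RNA from 3 mice mixed before extraction, so errors here describe pools, and single animals cannot be seen. The sources used here do not give the markers of the sort.

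Cholesterol is built from acetyl-CoA through mevalonate, farnesyl diphosphate, squalene and lanosterol. SREBP2, the product of Srebf2, is made as a membrane precursor in the endoplasmic reticulum, where it is bound to its escort SCAP. When sterols are plentiful, INSIG proteins hold SCAP in place; when sterols fall, SCAP carries SREBP2 to the Golgi, where proteases release a transcription factor that binds sterol regulatory elements near the genes of the pathway, Insig1 and Srebf2 among them. In the brain cholesterol is made locally, with astrocytes and oligodendrocytes as large producers, and microglia also take up cholesterol with myelin debris.

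The start regions of 4 members are shown because these are the stretches in which SREBP2 and its partner factors are known to act. The bases are from RefSeq on GRCm38.p6, written 5′ to 3′ on the gene's strand, and each run ends before both the RefSeq start and the GENCODE M21 gene start, whichever comes first. Capitals mark 3 kinds of match found by a letter search on both strands: a sterol regulatory element spelled TCACNCCAC or, in a looser form chosen after the windows had been read, TCACCNCA; the E-box CACGTG; and the CCAAT box (ATTGG when it lies on the other strand). The GC box GGGCGG was searched too and is left in lower case.
Insig1, chr5:28071162-28071362, plus strand: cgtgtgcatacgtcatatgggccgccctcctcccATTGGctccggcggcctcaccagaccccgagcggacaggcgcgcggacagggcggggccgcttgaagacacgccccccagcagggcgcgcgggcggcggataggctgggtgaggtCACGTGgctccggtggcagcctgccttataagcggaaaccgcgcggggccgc
Hmgcs1, chr13:119690101-119690350, plus strand: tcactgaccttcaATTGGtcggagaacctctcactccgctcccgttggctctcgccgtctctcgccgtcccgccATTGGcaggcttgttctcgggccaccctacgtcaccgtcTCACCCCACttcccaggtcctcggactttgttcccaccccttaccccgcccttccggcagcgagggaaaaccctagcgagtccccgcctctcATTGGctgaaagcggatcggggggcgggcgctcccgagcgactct
Cyp51, chr5:4104747-4104947, minus strand: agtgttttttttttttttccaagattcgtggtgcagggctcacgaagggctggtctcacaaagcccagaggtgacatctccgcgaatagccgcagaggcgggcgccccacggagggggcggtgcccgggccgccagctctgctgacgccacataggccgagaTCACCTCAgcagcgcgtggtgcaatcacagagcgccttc
Srebf2, chr15:82147019-82147180, plus strand: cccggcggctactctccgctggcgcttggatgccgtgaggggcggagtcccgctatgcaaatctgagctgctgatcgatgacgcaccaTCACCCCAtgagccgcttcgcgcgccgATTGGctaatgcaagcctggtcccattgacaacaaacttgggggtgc

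In Hmgcs1 both spellings of the sterol regulatory element matched the same stretch, whose first base lies 137 bases before the RefSeq start, and 3 CCAAT boxes stood in the window. Cyp51 held the looser spelling 88 bases before its start and a CCAAT box 29 bases before it, past the end of the printed run. Srebf2 held the looser spelling 162 bases and a CCAAT box 135 bases before its start. Insig1 held an E-box 101 bases and a CCAAT box 216 bases before its start, and neither spelling of the sterol regulatory element was found in its window. Idi1 held 2 CCAAT boxes and no match to the sterol regulatory element or the E-box. Over 32851 promoter windows of 250 bases, the shares with a match were 1.05% for the narrow spelling, 3.61% for the looser one, 6.02% for the E-box, 33.8% for the CCAAT box and 32.7% for the GC box. Of the 16 sterol enzyme genes with a window, 15 held a CCAAT box, 15 a GC box, 3 an E-box, 3 the looser spelling and 1 the narrow one. These genes had 19 windows and were counted if any of them matched, while the shares are per window. As the looser spelling was chosen after windows had been read, its count is not an independent result. A match of letters is a description and not a measured binding site.

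**Figure D1:**
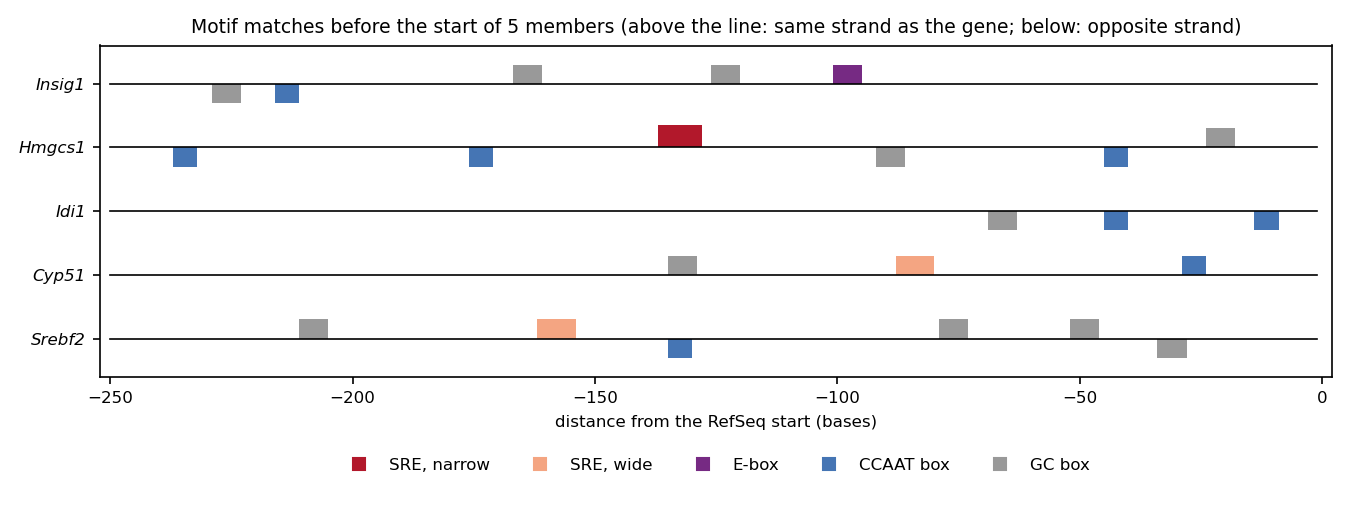
Matches of the searched motifs in the windows of the 5 members that had one, by distance in bases from the RefSeq start (0 on the horizontal axis), one row per gene. Hmgcs1, Cyp51 and Srebf2 carry a match to a sterol regulatory element, and Insig1 carries the E-box.

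Insig1 was higher in old than in young microglia by 0.58 on the log2 scale (1.50-fold), and it was the one member of the 7 that passed the test over all genes. Sqle and Cyp51 differed by as much, 0.60 and 0.56, without passing it. Srebf2 and Hmgcs1 differed by 0.23 and 0.21, and Idi1 and Fdps by 0.06 and 0.01. All 7 differences were above 0, as were 47.4% of the 14955 genes tested; 7 of 7 were also above 0 in middle-aged against young libraries (49.6% of genes) and 5 of 7 in old against middle-aged ones (48.5%). The deposited values are on a log2 scale; how they were transformed and the read totals are not stated, so depth is unknown. All 7 members passed the filter on low values, a linear value of 10 in at least 3 libraries. Differences were tested with limma over all 14955 genes that passed, with Benjamini-Hochberg adjustment at 0.05, under which 2% of genes were called between old and young in either direction and 1.7% as higher. As these are bulk libraries, fewer cells of a type and less RNA per cell cannot be told apart.

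Insig1 (chromosome 5, 28071363 to 28078662, plus strand, GENCODE M21 on GRCm38) encodes the retention protein that holds SCAP in the endoplasmic reticulum. Its log2 values were 9.86, 9.94 and 10.18 in the young libraries, 10.40, 10.56 and 10.49 in the middle-aged ones and 10.54, 10.44 and 10.76 in the old ones. Every middle-aged and every old library lay above every young one, and the middle-aged and old libraries overlapped. On the linear scale the means were 1024 ± 118 in young, 1431 ± 78.3 in middle-aged and 1536 ± 180 in old libraries (SD, n = 3 each). The old minus young difference was 0.58 ± 0.12 (SE; 95% interval 0.32 to 0.85; limma adjusted p = 0.0382). Between middle-aged and young it was 0.49 ± 0.12 (0.22 to 0.75; limma unadjusted p = 0.0020, adjusted p = 0.176), a comparison in which 0.114% of all genes were called, all of them higher. Between old and middle-aged libraries it was 0.10 ± 0.12 (limma adjusted p = 0.817), where 0.174% of genes were called and 0.16% as higher. The step from 6 to 15 months exceeded the step from 15 to 23 months by 0.39 ± 0.21, which the limma test of the difference between the steps did not call (adjusted p = 0.691), nor did it call any gene (0%). The call for old against young did not hold under most omissions of 1 library. Leaving out any of the 3 young libraries, middle-aged replicate 1 or 2, or old replicate 1 or 3 raised the limma adjusted p above 0.05, up to 0.157, with differences of 0.49 to 0.68 over all 9 omissions. Old replicate 3 stood apart from the other 8 libraries on the first principal component (29.9 against -14.4 to 5.90), and without it the difference was 0.49 (limma adjusted p = 0.0817).

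Srebf2 (chromosome 15, 82147181 to 82205379, plus strand) encodes SREBP2 itself. Its log2 values were 10.12, 9.9996 and 9.99 in young, 9.97, 10.43 and 10.49 in middle-aged and 10.22, 10.24 and 10.34 in old libraries. The 3 old libraries lay above the 3 young ones, while the middle-aged libraries spanned the range of both. The old minus young difference was 0.23 ± 0.13 (95% interval -0.07 to 0.53; limma adjusted p = 0.435), and middle-aged minus young was 0.26 ± 0.13 (limma adjusted p = 0.511).

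**Figure D2:**
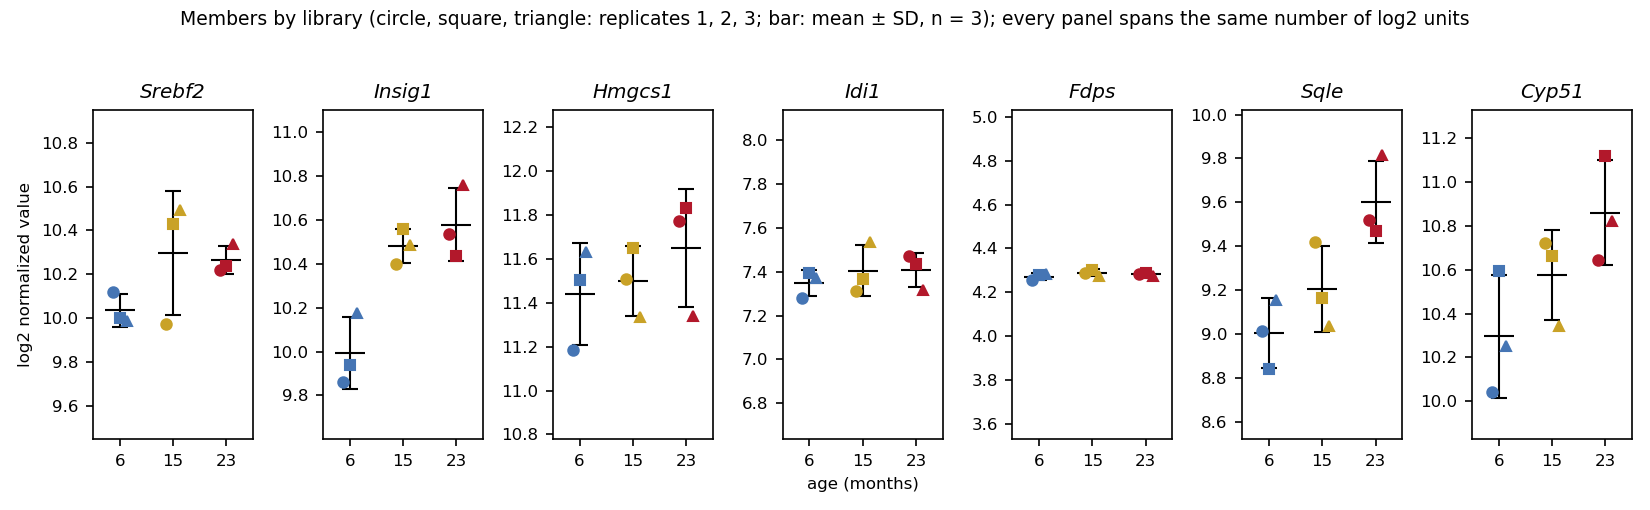
Log2 values of the 7 members in the 9 libraries, by age in months with a panel for each gene; circles, squares and triangles are replicates 1, 2 and 3, and bars give each age's mean ± SD (n = 3). Insig1, Sqle, Cyp51 and Srebf2 show no overlap between young and old libraries, and Idi1 and Fdps show overlap at all ages.

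Hmgcs1 (chromosome 13, 119690379 to 119708260, plus strand) encodes HMG-CoA synthase, which acts near the head of the pathway. Its values were 11.18, 11.51 and 11.63 in young, 11.51, 11.65 and 11.33 in middle-aged and 11.77, 11.83 and 11.34 in old libraries. Old replicates 1 and 2 were the highest of the 9, but old replicate 3 lay among the young ones. Old minus young it differed by 0.21 ± 0.16 (95% interval -0.14 to 0.56; limma adjusted p = 0.546) and ranged from 0.08 without young replicate 1 to 0.36 without old replicate 3.

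Idi1 (chromosome 13, 8885501 to 8892451, plus strand) encodes the isomerase of isopentenyl diphosphate. Its values ran from 7.28 to 7.39 in young, 7.31 to 7.54 in middle-aged and 7.32 to 7.47 in old libraries, so all ages overlapped. Idi1 differed by 0.06 ± 0.09 between old and young, with a 95% interval of -0.14 to 0.25 (limma adjusted p = 0.774). Fdps (chromosome 3, 89093588 to 89101959, minus strand) encodes farnesyl diphosphate synthase, whose product feeds both the sterol and the non-sterol branch. Its values ran from 4.25 to 4.28 in young, 4.27 to 4.30 in middle-aged and 4.27 to 4.29 in old libraries. This is a narrow range: over the 1238 tested genes with linear means from 16 to 32, the median range over the 9 libraries was 0.15, against 0.54 for the 3870 genes from 1024 to 4096. Between old and young libraries Fdps differed by 0.01 ± 0.02 (95% interval -0.04 to 0.07; limma adjusted p = 0.863). The authors' deposited table for old against young gave it a wider error (0.07 ± 0.18), so the limma interval alone does not bound the change.

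Both genes have near copies, which limits what their rows can show. Among GENCODE M21 transcripts, Fdps shared at least 200 bases at 95% identity or more with 5 other genes, 4 of them pseudogenes, the longest match being 1066 bases at 96.7%. The pseudogene Gm3571 was listed at linear values of 214 to 264 and Gm5873 at 86.3 to 95.5, while Fdps was listed at 19.1 to 19.7. How reads that match several places were counted is not stated, and whether reads of Fdps stand in these rows was not tested. Gm3571 differed by 0.17 ± 0.09 between old and young (limma adjusted p = 0.399), with no overlap between these groups. Idi1 matched 3 other genes, 2 of them pseudogenes, over up to 684 bases at 100%, and the pseudogene Gm13502 was listed at 96.1 to 110, beside 155 to 186 for Idi1. Hmgcs1 matched 1 gene, its overlapping antisense gene Gm48342, over 462 bases. No such copy was found for Insig1, Sqle, Cyp51 or Srebf2.

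Sqle (chromosome 15, 59315077 to 59331192, plus strand) encodes squalene epoxidase, the first oxygen-requiring step and a second control point of the pathway. Its values were 9.02, 8.84 and 9.16 in young, 9.42, 9.16 and 9.04 in middle-aged and 9.52, 9.47 and 9.82 in old libraries. All 3 old libraries lay above all 6 others, and the young and middle-aged libraries overlapped. On the linear scale the means were 516 ± 56.0, 594 ± 82.5 and 782 ± 105 in young, middle-aged and old libraries (SD, n = 3 each). The old minus young difference was 0.60 ± 0.14 (95% interval 0.29 to 0.91; limma adjusted p = 0.0592), and without old replicate 3 it was 0.49 (limma adjusted p = 0.123). Against middle-aged libraries the old ones were 0.40 ± 0.14 higher (limma unadjusted p = 0.0168, adjusted p = 0.380).

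Cyp51 (chromosome 5, 4081145 to 4104746, minus strand) encodes lanosterol demethylase, which starts the conversion of lanosterol to cholesterol. Its values were 10.04, 10.60 and 10.25 in young, 10.72, 10.66 and 10.34 in middle-aged and 10.64, 11.12 and 10.82 in old libraries. The lowest old library lay just above the highest young one, and the middle-aged libraries overlapped with both ages. The old minus young difference was 0.56 ± 0.17 (95% interval 0.19 to 0.94; limma adjusted p = 0.125), and 0.58 without old replicate 3 (limma adjusted p = 0.194).

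Counted together, 4 of the 7 members had no overlap between old and young libraries with the old ones higher, which 12.2% of all tested genes also had. By an unadjusted p under 0.05, 3 members were higher and 0 lower, beside 9.07% and 7.69% of all genes. The members' median difference was 0.23, and the median over all tested genes was -0.01. Between middle-aged and young libraries 0 of 7 were called, 1 (Insig1) was higher by an unadjusted p under 0.05 and 0 lower (6.21% and 5.15% of all genes), 1 (Insig1) had no overlap (11.6% of all genes, as higher), and the median was 0.20. Between old and middle-aged libraries 0 were called, 1 (Sqle) was higher by an unadjusted p under 0.05 and 0 lower (5.42% and 4.76%), 1 (Sqle) had no overlap (6.47%), and the median was 0.10. The F test over the 3 ages called 0.836% of all genes and none of the 7, with limma adjusted p = 0.0775 for Insig1, 0.132 for Sqle and 0.242 for Cyp51. The libraries of each age enter more than 1 of these comparisons, so the counts are not independent of each other.

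The authors' deposited tables, whose columns carry the names DESeq2 uses, called more of the members at an adjusted p under 0.05. In the authors' deposited table for old against young, Insig1 was higher by 0.79 ± 0.19 on the log2 scale (deposited adjusted p = 0.00158), Sqle by 0.87 ± 0.21 (0.00159) and Cyp51 by 0.62 ± 0.21 (0.0480), where 4.72% of genes were called higher. The same deposited table gave 0.36 ± 0.15 for Srebf2 (deposited adjusted p = 0.136), 0.23 ± 0.20 for Hmgcs1 (0.578), 0.16 ± 0.23 for Idi1 (0.778) and 0.07 ± 0.18 for Fdps (0.894). In the authors' deposited table for middle-aged against young, Insig1 was the 1 member called, at 0.63 ± 0.16 (deposited adjusted p = 0.00477; 3.26% of genes were called higher). In the authors' deposited table for old against middle-aged, 0 members were called (0.859% of genes were called higher). The authors' deposited tables and the limma fit both placed Insig1, Sqle and Cyp51 above the other 4 members for old against young, with larger log2 fold changes in the deposited tables.

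The order of levels was compared per kilobase of exon. In young libraries it ran from Hmgcs1 (log2 9.24 per kilobase) over Insig1 (8.36), Cyp51 (8.15), Srebf2 (7.19), Sqle (6.53) and Idi1 (5.54) to Fdps (2.20). Old libraries had the same order, at 9.45, 8.95, 8.72, 7.42, 7.13, 5.60 and 2.21. Insig1 and Cyp51 overlapped in young and in old libraries and did not in middle-aged ones, and all other neighbours in the order were apart at each age. The position of Fdps rests on the row described above, whose near copies were listed higher.

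The sterol enzymes as a whole, members included, were read from the same fit. Of 21 sterol synthesis enzymes, from Acat2 at the head of the pathway to the reductases that finish cholesterol, 21 were tested. Between old and young 0 were called (2% of all genes were). Of the 21, 5 were higher by an unadjusted p under 0.05 and 0 lower (9.07% and 7.69% of all genes). Above 0 lay 17 (47.4% of all genes), and the median difference was 0.13. The 5 were Sqle, Cyp51, Sc5d, Msmo1 and Fdft1. Among the 16 enzymes that are not members, 3 were higher by an unadjusted p under 0.05 and 0 lower. Of these 16, 12 lay above 0, and their median difference was 0.12. Sc5d, the lathosterol oxidase, differed by 0.36 ± 0.11 (limma adjusted p = 0.132). Msmo1, the methylsterol monooxygenase that acts after CYP51, differed by 0.33 ± 0.10 (limma adjusted p = 0.141). Fdft1, squalene synthase, differed by 0.32 ± 0.12 (limma adjusted p = 0.212). All 5 act from squalene synthase on: among the 13 enzymes from squalene synthase onward the median was 0.16, and among the 8 enzymes up to farnesyl diphosphate, 0 had an unadjusted p under 0.05 and the median was 0.10. Whether these stretches of the pathway differ was not tested. The 4 enzymes below 0 were Lss at -0.31, Acat2 at -0.29, Pmvk at -0.05 and Hsd17b7 at -0.04, and Lss was low in old replicate 3 alone (7.90, against 8.57 to 8.77 in the other 8 libraries). Without old replicate 3 the differences were -0.06 for Lss, -0.02 for Acat2, -0.03 for Pmvk and 0.21 for Hsd17b7. Lss, Acat2, Pmvk and Hsd17b7 are named here after their values had been seen.

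Between middle-aged and young libraries 0 of the 21 enzymes were called (0.114% of all genes were). By an unadjusted p under 0.05, 0 were lower and 3 higher (5.15% and 6.21% of all genes). They were Msmo1 at 0.30 ± 0.10 (limma adjusted p = 0.297), Mvd, the mevalonate diphosphate decarboxylase, at 0.30 ± 0.10 (adjusted p = 0.284), and Lbr at 0.27 ± 0.11 (adjusted p = 0.413). Between old and middle-aged libraries 0 were called (0.174% of all genes were). Beside Sqle stood Sc5d at 0.40 ± 0.11 (limma adjusted p = 0.265), Tm7sf2 at 0.36 ± 0.12 (adjusted p = 0.375) and Lbr at -0.26 ± 0.11 (adjusted p = 0.482). Without old replicate 3 the difference of Tm7sf2 was 0.20. Lbr and Tm7sf2 encode enzymes for the same sterol reduction. The authors' deposited tables called Msmo1 (0.38 on the log2 scale) and Mvd (0.54) higher in middle-aged than in young libraries, and Sc5d (0.50) higher in old than in young ones.

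**Figure D3:**
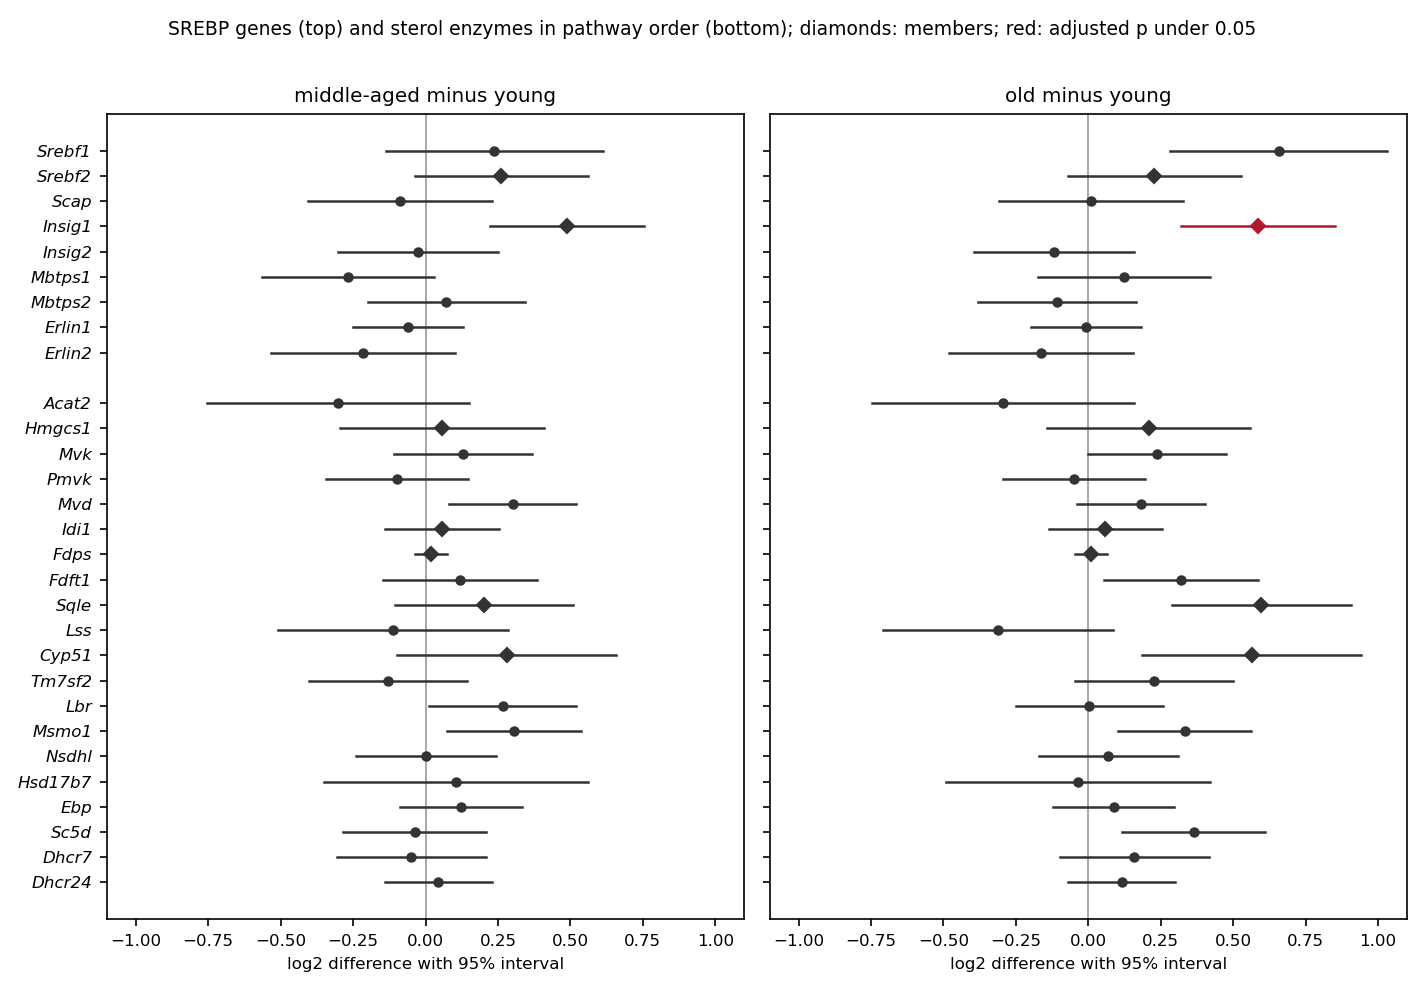
Log2 differences with 95% intervals from the limma fit, middle-aged minus young on the left and old minus young on the right, for the genes of SREBP activation (top) and sterol enzymes in pathway order (bottom), with members as diamonds and an adjusted p under 0.05 in red. Of the genes drawn only Insig1 is red, in old minus young at 0.58 (0.32 to 0.85), and the intervals of Idi1 and Fdps include 0 on both sides.

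Among the 9 genes of SREBP activation and retention, 1 (Insig1) was called between old and young (2% of all genes were), and the median difference was 0.01. Insig2, the second retention gene, had values of 11.37 to 11.66 in young and 11.28 to 11.44 in old libraries, a difference of -0.12 ± 0.12 (95% interval -0.40 to 0.16; limma adjusted p = 0.670). Per kilobase Insig2 was listed above Insig1, at 9.70 in young libraries. Scap, the escort, differed by 0.01 ± 0.14 (limma adjusted p = 0.979), with a sign that turned under quantile normalization. Srebf1, which encodes the SREBP1 factors of fatty acid synthesis, had values of 8.66, 8.78 and 8.50 in young, 8.82, 8.75 and 9.08 in middle-aged and 9.20, 9.02 and 9.69 in old libraries. Old libraries lay above all young ones, with old replicate 3 the highest. Srebf1 differed by 0.66 ± 0.17 (limma adjusted p = 0.0797), and 0.46 without old replicate 3 (adjusted p = 0.130). In the authors' deposited table for old against young Srebf1 was called higher at 0.87 (deposited adjusted p = 0.00367). Mbtps1, one of the Golgi proteases, differed by 0.39 ± 0.13 between old and middle-aged libraries (limma adjusted p = 0.370) and by 0.25 without old replicate 3. The 10 genes for sterol-regulated degradation, all tested, had 0 calls in old against young and a median of -0.03; the lowest unadjusted p among them was that of the ubiquitin ligase Syvn1 at 0.34 ± 0.13 (limma adjusted p = 0.233).

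Genes that take up, free and move sterols included 2 that passed the test between old and young, Lipa and Nceh1. Of 15 listed, 14 were tested and 1 was below the filter. Lipa and Nceh1 were called higher in old libraries (1.7% of all genes were), 0 were called lower, and the median difference was 0.14. Lipa, the lysosomal acid lipase that frees cholesterol from its esters, had values of 14.09, 14.15 and 14.22 in young, 14.40, 14.25 and 14.28 in middle-aged and 14.71, 14.69 and 14.61 in old libraries. All old libraries lay above all others, and Lipa rose by 0.52 ± 0.08 from young to old (limma adjusted p = 0.00825). Nceh1, a neutral cholesterol ester hydrolase, had values of 11.30, 11.37 and 11.35 in young, 11.73, 11.43 and 11.40 in middle-aged and 12.21, 12.31 and 11.91 in old libraries. All old libraries were again above all others, and Nceh1 rose by 0.80 ± 0.13 (limma adjusted p = 0.0116), a call lost without young replicate 1 (adjusted p = 0.0661) or young replicate 3 (0.0692). Soat1, which esterifies cholesterol, differed by 0.44 ± 0.11 (limma adjusted p = 0.0737) and Npc2, which carries cholesterol out of lysosomes, by 0.43 ± 0.10 (adjusted p = 0.0629). Among 9 genes of oxysterol formation and efflux, 2 were called higher between old and young and 0 lower. Of the 9, 6 lay above 0 and 3 below, and the median difference was 0.05. Ch25h, which makes 25-hydroxycholesterol, rose by 1.92 ± 0.13 from young to old (limma adjusted p = 4.42e-05) and Apoe, the apolipoprotein that accepts effluxed cholesterol, by 1.82 ± 0.19 (adjusted p = 0.000746).

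The branches that share substrates or factors with the members had no calls between old and young. Over all genes 2% were called, so lists of this size would hold few calls or none at that share. Of 15 genes of SREBP1-driven fatty acid synthesis, 0 were called between old and young, and the median was 0.05. Acaca, acetyl-CoA carboxylase, differed most, by 0.86 ± 0.21 (limma adjusted p = 0.0696), and by 0.70 without old replicate 3 (adjusted p = 0.163); the authors' deposited table called it higher at 1.11 (deposited adjusted p = 5.47e-06). Scd2, a desaturase, lay 0.28 ± 0.12 lower in middle-aged than in young libraries and 0.39 ± 0.12 higher in old than in middle-aged ones (limma adjusted p = 0.395 and 0.304). Of 15 tested genes of the non-sterol branch, which uses farnesyl diphosphate for dolichol, ubiquinone and prenylated proteins, 0 were called and the median was -0.08. Coq2 (ubiquinone synthesis) differed by -0.50 ± 0.19, Icmt (methylation of prenylated proteins) by -0.35 ± 0.14 and Rabggta (prenylation of Rab proteins) by -0.32 ± 0.13, with limma adjusted p from 0.212 to 0.260. Without old replicate 3 these were -0.27, -0.18 and -0.17. Chm, which presents Rab proteins for prenylation, lay on the other side at 0.35 ± 0.13 (limma adjusted p = 0.217), and at 0.22 without old replicate 3.

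**Figure D4:**
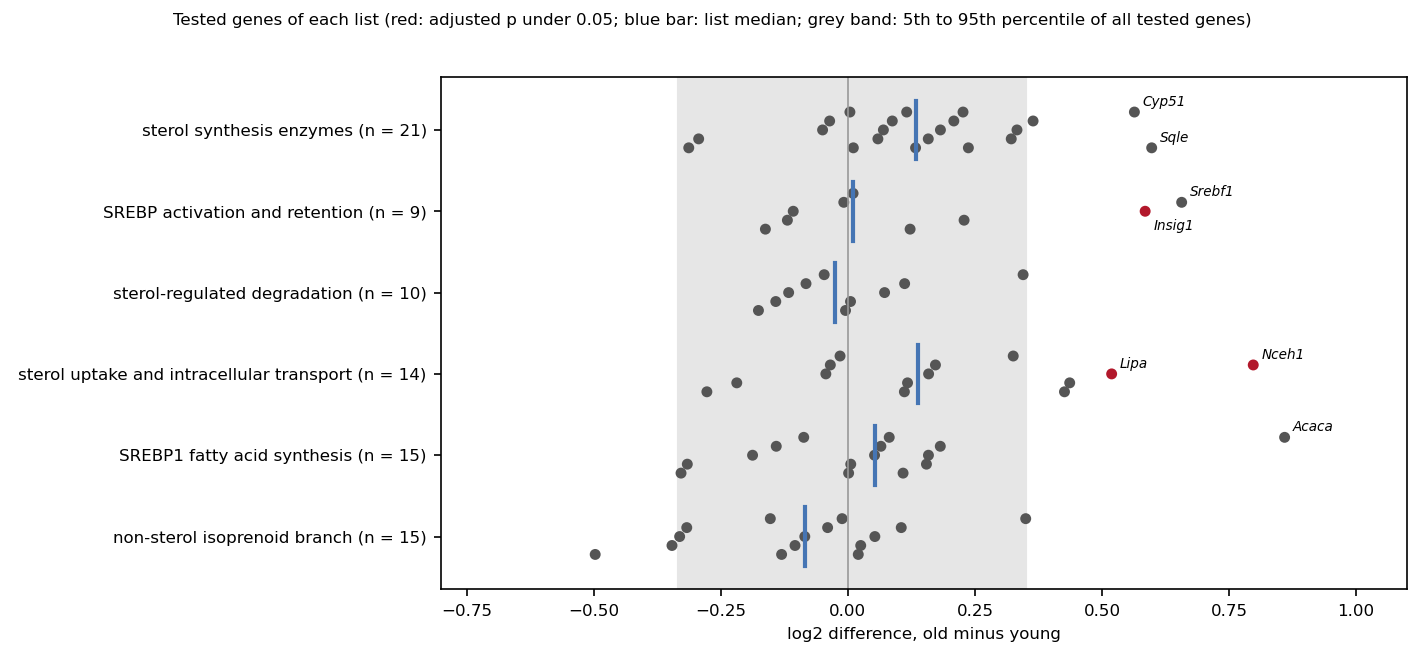
Old minus young log2 differences of the tested genes of 6 lists, one point per gene, with list medians as blue bars and the 5th to 95th percentile of all tested genes (-0.33 to 0.35) as the grey band. Insig1, Lipa and Nceh1 are the points with an adjusted p under 0.05, and Sqle, Cyp51, Sc5d, Srebf1, Soat1, Npc2 and Acaca above the band and Coq2 and Icmt below it lie outside without one.

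The members followed one another to different degrees over the libraries. The correlation of each member with the mean of the other 6 over the 9 libraries, a description without a test since the libraries share their ages, was highest for Insig1 (r = 0.83), then 0.70 for Cyp51, 0.62 for Sqle, 0.58 for Fdps, 0.42 for Hmgcs1, 0.34 for Srebf2 and 0.26 for Idi1. Fdps ranged over only 0.05 and Idi1 over 0.26 across the 9 libraries, which limits what their correlations can show. Values were centred and not scaled, so members with a larger spread weigh more in each mean. The members' mean centred profile lay at -0.26, -0.15 and -0.11 in young, 0.00, 0.08 and -0.01 in middle-aged and 0.12, 0.17 and 0.15 in old libraries. Among 11954 tested genes outside the lists with a mean of at least 50, those most like this profile included Smpdl3a (r = 0.97), Lgals3 (0.97), Gla (0.97), Fgr (0.96), Jag1 (0.96), St8sia6 (0.96), Vim (0.95), Tnf (0.95) and Dna2 (0.95), each over the same 9 libraries. In each of these the mean rose from young to middle-aged to old. As the libraries share their ages, such a rise can by itself give a high r, so these values do not tie the genes to the pathway.

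Marker genes were read beside these differences. Of 18 microglia markers 15 were analysed, and their summed linear level was 2166350 to 2468170 in young, 1937540 to 2177830 in middle-aged and 2001760 to 2185690 in old libraries, above every other list. Of the 15, 2 were called higher and 2 lower between old and young. Oligodendrocyte lineage markers summed to 6756 to 7434 in young, 6381 to 9380 in middle-aged and 7693 to 10581 in old libraries, with old above young and no overlap, and 1 of the 11 tested was called higher. Ugt8a, Opalin, Olig1 and Olig2 were below the filter. Astrocyte markers summed to 20763 to 22117 in young and 16777 to 18663 in old libraries, most of it from Slc1a3 (14222 to 19331 over the 9 libraries), with 0 of 9 called and a median difference of -0.07. Monocyte markers summed to 67167 to 86456 in young and 73459 to 108031 in old libraries, with 3 of 11 called higher. Border macrophage markers summed to 151697 to 164676 in young and 99453 to 126086 in old libraries, without overlap. Of these 12, 3 were called lower between old and young. Below 0 lay 11 and above it 1 (47.4% of all genes lay above 0), with a median of -0.48. Over all genes, 2% were called between old and young in either direction. Neutrophil marker sums were 273701 to 506435 in young, 446659 to 1014260 in middle-aged and 222852 to 505452 in old libraries, with 0 of 13 called. Neuron markers summed to 376 to 466 over all 9 libraries, with 5 of 10 below the filter and 0 called. Endothelial and mural markers summed to 3912 to 4370 in young and 3610 to 4464 in old libraries, with 1 of 9 called higher. The part of these cell types in the members' differences was not tested.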

How the data were processed

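RNA of sorted microglia was pooled from 3 mice a library and amplified with a kit for ultra-low input, per the labels' protocols. The submitters' processing notes name CASAVA, cutadapt 1.13, STAR 2.5.3, DESeq2 1.16.1 and the mm10 build, without their roles; read counter and annotation are not stated. The authors deposited per-library values on a log2 scale, used here unchanged. Their comparison tables hold, per the file headers, the mean signal of a gene (base mean), a log2 fold change with its error, a test score, and p-values before and after adjustment. Whole reads could not be recovered, so precision rests on the 3 libraries per age.

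Genes at or above log2 of 10 in at least 3 libraries (14955 of 22036) were fitted with limma 3.58.1 in R 4.3.3, with 3 ages as groups and a variance trend. Its moderated tests are two-sided and were adjusted by Benjamini-Hochberg over all of them. With 3 libraries against 3, an exact permutation p is at least 0.1; the calls therefore lean on the model's shared spread (4.57 prior and 6 residual degrees of freedom). The fit was run on simulated data in which each gene's noise was independent and equally large in all libraries. That run cannot vouch for calls that depend on an outlying library such as old replicate 3. Members and lists were chosen with earlier results of these data known. Named genes were the 7 members, called list genes, up to 3 more per list and comparison by smallest p, Insig2, Srebf1, Scap and other textbook partners, and the 10 genes most like the members' mean profile; some genes that this rule selects are not reported here. Alternatives covered the filter, a pseudocount of 1, normalization, the variance model, weights per library, the replicate number as a block, a fit to only the 2 ages compared, and omission of each library. Coordinates and lengths are from GENCODE M21 on GRCm38, promoters from RefSeq on GRCm38.p6. The listed genes Chml, P2ry12, Gpr34, P2ry13, Gfap and Nefl were not analysed here.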

Additional observations from a re-analysis of the deposited data

How the results depend on the processing

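Depth is unknown, so no limit from it can be given; low rows such as Fdps sit on a part of the scale with little spread. Of 1857 single-gene values under an alternative, over 98 results, 1781 kept their direction and side of the threshold, 39 lost the call, 20 gained it and 17 changed sign. Most of the 98 results were not called as reported, and these count as kept when they stay uncalled. The 39 losses all fell on results of Apoe, Ch25h, Insig1 and Nceh1. Insig1 in old against young was called by limma in 10 of 19 alternatives, in 2 of 9 omissions of a library and 8 of 10 others (adjusted p from 0.0171 to 0.0852; lost without the filter, 0.0607, and with only the 2 ages fitted, 0.0852). Sqle was called in 2 of 19 (filter at 50, adjusted p = 0.0481; library weights, 0.0214) and Cyp51 in 1 of 19 (library weights, 0.0453). Lipa kept its call in 19 of 19. The cause of these changes was not tested.

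Members called in old against young, 1 as reported, numbered 0 without the filter, 2 with the filter at 50, 3 with library weights, 0 with only the 2 ages and 0 to 1 without single libraries. For the 30 sterol synthesis and SREBP genes, 1 as reported, the counts were 0, 2, 6, 0 and 0 to 2. Over all genes, the calls for middle-aged against young (17) were 10 without the filter, 29 with the filter at 50, 312 with library weights and 4 to 49 without single libraries. For old against young (299) they were 170 without the filter, 1609 with library weights, 153 with only the 2 ages and 84 to 322 without single libraries. For old against middle-aged (26) they were 9 without the filter, 47 with the filter at 50, 3 without the variance trend, 62 with library weights, 0 with only the 2 ages and 3 to 23 without single libraries. For the F test (125) they were 1275 with library weights and 51 to 141 without single libraries. For the difference between the steps (0) they were 0 to 5 without single libraries, 5 of them without middle-aged replicate 2.

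With the replicate number as a block, calls were 11, 185 and 14 in the 3 comparisons and 80 in the F test, and 1 member was called in old against young, as without it. In deviations from each age's mean, same-numbered libraries correlated from -0.242 to 0.234 and differently numbered ones from -0.437 to 0.421. With 3 libraries per age, these values cannot show whether the numbers pair the libraries.

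Signs changed for small differences alone. Fdps, old minus middle-aged, was 0.0052 under quantile normalization and -0.0146 to 0.00048 without single libraries. Hmgcs1, middle-aged minus young, was -9.15e-05 with library weights and -0.0711 to 0.153 without single libraries. Without single libraries, Idi1 was -0.0086 to 0.102 in middle-aged minus young and -0.0434 to 0.0676 in old minus middle-aged, and Srebf2 was -0.196 to 0.0633 in old minus middle-aged. Scap, old minus young, was -0.0020 under quantile normalization, -0.131 with library weights and -0.153 to 0.119 without single libraries.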
